A study of Mus musculus with 19 samples.

Results

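Genes of resident and alternatively activated macrophages were followed in bulk RNA of dorsal root ganglia of mice. These ganglia hold the cell bodies of the sensory neurons that serve, among others, the knee. There were 10 genes, Mrc1, Cd163, Lyve1, Folr2, Clec10a, Timd4, Mertk, F13a1, Cbr2 and Retnla, chosen by name out of 36682 genes in the table, and each had 1 entry. All 19 mice were males homozygous for the MaFIA transgene (macrophage Fas-induced apoptosis), vehicle mice included. The transgene is driven by the Csf1r promoter and codes for a Fas-based death receptor that the dimerizing drug AP20187 activates. The groups were DMM with AP20187 (n = 5, mice 58 to 62), DMM with vehicle (n = 5, mice 32 to 34, 63 and 64), naive with AP20187 (n = 4, mice 1, 3, 4 and 5) and naive with vehicle (n = 5, mice 1 to 5). DMM is surgical destabilization of the medial meniscus, a model of knee osteoarthritis, and treatment came 8 weeks after it. Naive mice were age-matched and had no surgery. AP20187 or vehicle was injected into the peritoneum daily for 5 days, and ganglia L3 to L5 were pooled for each mouse, taken in DMM mice from the side of the operated knee.

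Macrophages that reside in a tissue are commonly recognised by endocytic receptors and by receptors for dying cells. Interleukin 4 and interleukin 13 act through the receptor chain Il4ra and the transcription factor STAT6 to induce a program called alternative activation, of which Mrc1, Clec10a and Retnla are textbook genes in the mouse. In peripheral nerve and ganglia, macrophages lie beside blood vessels and around neuron cell bodies. The genes are taken below by role: endocytic and lectin receptors, receptors for dying cells, enzymes, and the secreted protein Retnla.

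The promoters of Retnla, Cbr2 and Mrc1 are printed because Retnla fell and Cbr2 rose with AP20187 in DMM and Mrc1 is the usual marker of the program. RefSeq promoters (GRCm38.p6, 250 bases before to 50 after a gene's start) were at hand for 8 of the 10 genes, 10 promoters in all. Capitals mark the fixed bases of matches, on either strand, to 4 motifs. These were TTC and GAA with any 4 bases between them (STAT6), GAGGAA (the core of PU.1, a myeloid factor), TTNNGNAA (C/EBP) and TGCTGAC (MAF).
Retnla, chr16:48842359-48842658, plus strand: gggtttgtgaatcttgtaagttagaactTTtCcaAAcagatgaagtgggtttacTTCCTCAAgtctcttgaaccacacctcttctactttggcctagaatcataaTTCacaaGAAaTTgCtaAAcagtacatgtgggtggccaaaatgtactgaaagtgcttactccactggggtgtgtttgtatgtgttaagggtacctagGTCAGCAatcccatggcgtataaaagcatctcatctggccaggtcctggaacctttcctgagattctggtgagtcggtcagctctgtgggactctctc
Cbr2, chr11:120731972-120732271, minus strand: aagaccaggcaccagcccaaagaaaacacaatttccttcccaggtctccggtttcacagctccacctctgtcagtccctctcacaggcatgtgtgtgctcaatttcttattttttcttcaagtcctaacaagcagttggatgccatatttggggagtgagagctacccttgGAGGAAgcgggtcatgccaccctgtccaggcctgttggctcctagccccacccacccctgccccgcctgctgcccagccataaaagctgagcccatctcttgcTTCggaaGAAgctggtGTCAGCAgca
Mrc1, chr2:14229164-14229463, plus strand: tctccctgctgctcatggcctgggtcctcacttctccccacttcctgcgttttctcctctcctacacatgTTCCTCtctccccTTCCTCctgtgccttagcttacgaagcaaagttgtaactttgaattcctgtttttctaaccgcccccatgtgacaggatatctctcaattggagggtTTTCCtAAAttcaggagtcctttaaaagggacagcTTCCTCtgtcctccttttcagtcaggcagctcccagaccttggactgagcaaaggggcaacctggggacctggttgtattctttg
The STAT6 letters stood in the promoters of Retnla, from base -145, and Cbr2, from base 25 after the start, and in none of the 8 other promoters of the set. Of all 32851 promoters in the table, 6.95% held them. PU.1 letters were in 5 of the 10 promoters, against 28.3% of all, C/EBP letters in 6, against 40.7%, and MAF letters in 3, against 4.67%. In Retnla a PU.1 match lies inside a C/EBP match, and in Mrc1 a pair of C/EBP matches overlap. A match is a description of the letters and not evidence of binding.

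Libraries held 60984830 to 74691396 counts, and values below are CPM, the usual scaling of counts by library size, with sizes adjusted by TMM (trimmed mean of M values). A library with 3 counts of a gene, used here as the floor of detection, corresponds to 0.0400 to 0.0519 CPM, and bounds below use its mean over the libraries of a group, 0.0445 to 0.0504 CPM. Floors cover counting error only. Markers of other cells differed between the groups. The summed CPM of 11 neutrophil and granulocyte precursor genes was 16755 to 28952 in DMM with AP20187 and 388 to 7732 with vehicle, and 7987 to 27343 and 814 to 2208 in naive mice. That of 7 sensory neuron genes, which check the tissue, was 1321 to 4196, 3563 to 7929, 1417 to 6186 and 4848 to 8773 in the same order. Naive mice with AP20187 also had 1465 to 2218 CPM of 5 skeletal muscle genes, against a highest value of 1712 in the other libraries. The 6 erythroid genes summed to 1031 to 4247 and 1266 to 21091 CPM in DMM and 1559 to 3201 and 2640.3 to 10568 in naive mice, and 3 of them passed lower in DMM. The part these markers have in the differences below was not tested. In bulk RNA, fewer cells of a type and less RNA per cell cannot be told apart.

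Per length, the levels of the 10 genes spanned a wide range in naive mice with vehicle. By FPKM (fragments scaled by gene length and library size), F13a1 stood highest at 11.4 ± 5.62 (SD, n = 5), followed by Mrc1 at 6.25 ± 4.00, Cd163 at 5.23 ± 3.37, Cbr2 at 5.16 ± 2.94 and Mertk at 4.46 ± 0.709. Lyve1 at 2.81 ± 0.995, Clec10a at 2.07 ± 1.25 and Retnla at 1.56 ± 0.874 FPKM came next. Folr2 at 0.339 ± 0.332 and Timd4 at 0.192 ± 0.118 FPKM were lowest. Each neighbour in this order lay within the larger SD of the pair, except Mertk above Lyve1 and Retnla above Folr2. In DMM mice with AP20187 the order was F13a1 (40.1 ± 12.7), Cbr2 (27.01 ± 16.4), Mrc1 (19.3 ± 11.4), Cd163 (10.2 ± 5.97), Lyve1 (7.96 ± 3.82), Folr2 (5.41 ± 3.95), Mertk (4.41 ± 0.411), Clec10a (4.07 ± 3.29) and Timd4 (0.259 ± 0.138) FPKM, with Retnla listed at 0.

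**Figure D1:**
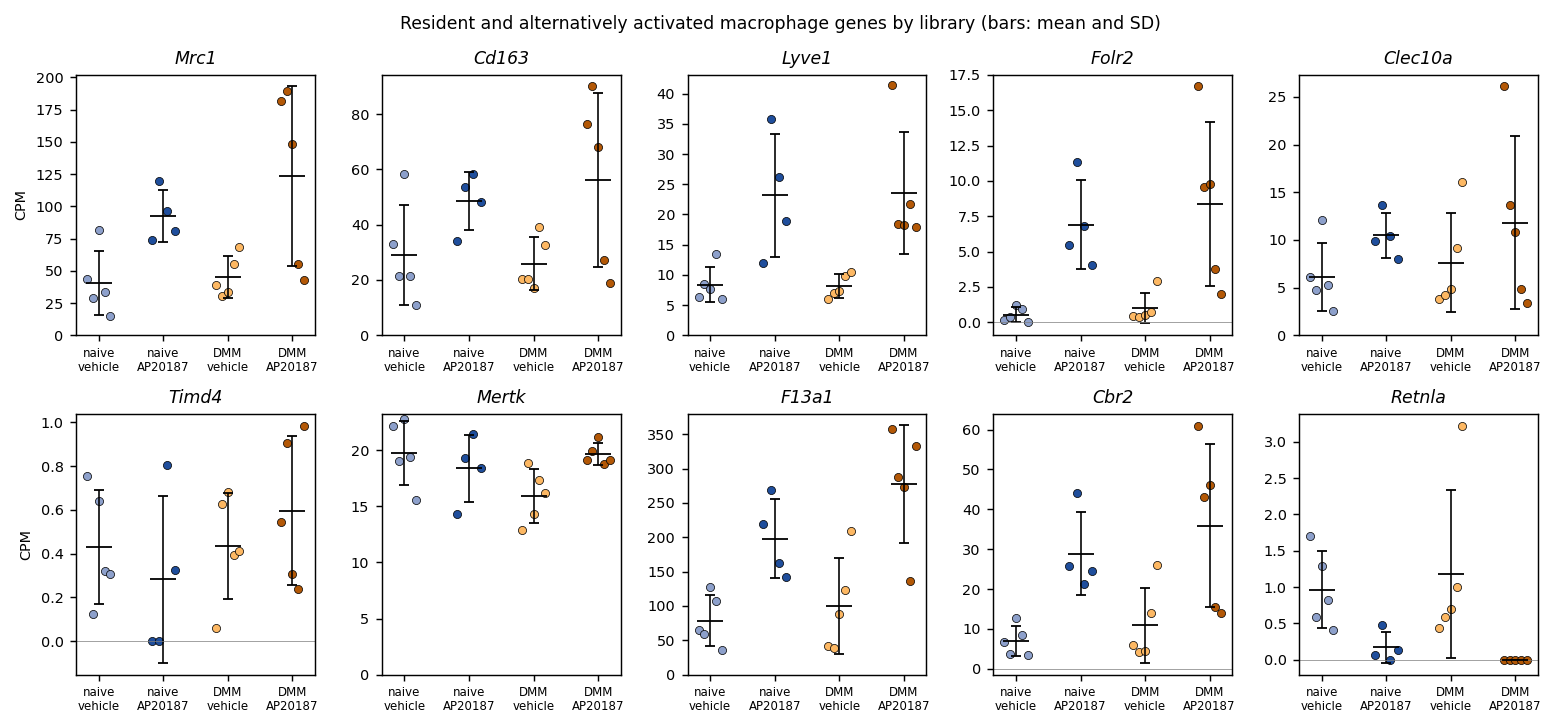
CPM of each of the 10 genes (vertical axes, linear, 1 scale per gene) in the 19 libraries by group, with each point 1 mouse and bars giving the mean and SD. Lyve1 in DMM and Folr2, F13a1 and Cbr2 in naive mice lay higher with AP20187 with no overlap, and Retnla was at 0 in all 5 DMM mice with AP20187.

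AP20187 was given to remove macrophages, and the first comparison was of DMM mice with and without it. Of the 10 genes, 6 passed an adjusted p of 0.05 in edgeR's quasi-likelihood test. Mrc1, Lyve1, Folr2, F13a1 and Cbr2 rose, and Retnla fell. Cd163, Clec10a, Timd4 and Mertk did not pass. Over all genes 23.8% of 22778 passed, 11.3% higher and 12.4% lower. The balance moved with single libraries, to 1866 genes higher and 1346 lower without AP20187 mouse 58 and 3504 and 4173 without vehicle mouse 64. The median log2 fold change of the 10 genes was 1.28, the same with Retnla at its bound, against -0.10 over all genes. In naive mice 3 of 10 passed, Lyve1, Folr2 and Cbr2, all higher with AP20187, against 11.2% of all genes (8.61% higher and 2.57% lower). Of those, 1962 of 2548 were higher, against 1550 of 2465 without TMM and 2765 of 4367 with DESeq2. By limma on FPKM most were lower, with 1625 of 4147 higher on log2(FPKM + 1) and 1672 of 4225 on log2(FPKM + 0.1). By edgeR the median log2 fold change of the 10 genes in naive mice was 0.99, against -0.07 over all genes. Lyve1 and Retnla did not overlap in DMM, 2 of 10 against 12.9% of all genes (8.71% higher and 4.18% lower). Retnla was at 0 in all 5 DMM libraries with AP20187 and met the filter on low counts through the vehicle libraries. Its place in both DMM counts, of genes that passed and of genes without overlap, is therefore no added support. Folr2, F13a1 and Cbr2 did not overlap in naive mice, 3 of 10 against 15.5% of all genes (9.39% higher and 6.15% lower).

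**Figure D2:**
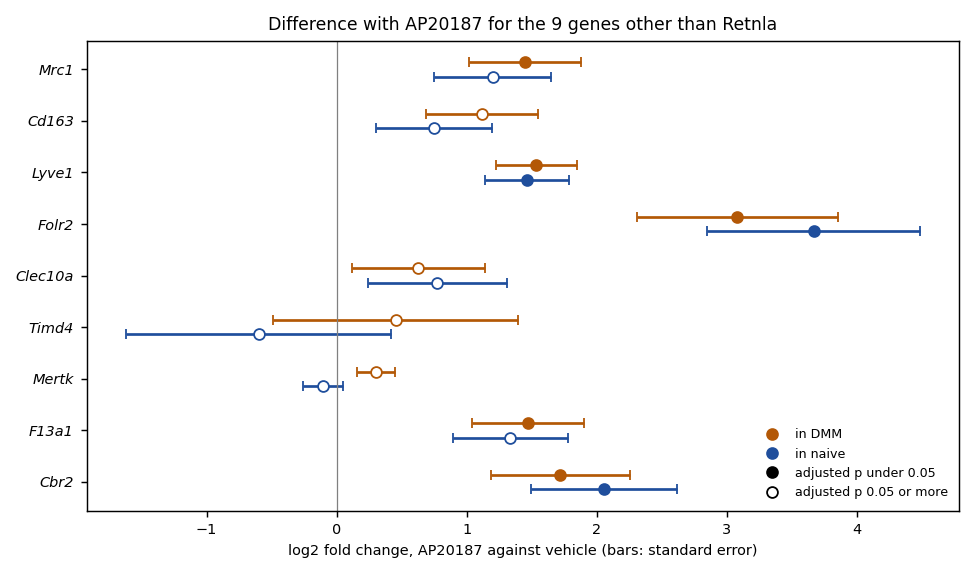
Log2 fold change of AP20187 against vehicle (horizontal axis) with its standard error for the 9 genes other than Retnla, in DMM and in naive mice, with filled points for an adjusted p under 0.05. Folr2 stands farthest to the right in both, at 3.08 in DMM and 3.67 in naive mice, and Mertk lies near 0.

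The DMM vehicle mice carried numbers from separate series, 32 to 34 and 63 to 64, and the AP20187 mice were numbered 58 to 62. Against mice 63 and 64 alone, Retnla was the 1 gene of the 10 that passed, when 1156 of 24459 genes tested passed in all. Against mice 32 to 34 alone 7 passed, and 8450 of 23283 genes in all. What the numbers stand for is not given by the labels. Vehicle mouse 64 had the highest CPM of its group for 7 of the 10 genes, Retnla among them, and a summed CPM of 12 general macrophage genes of 1036, the highest of that group. The summed CPM of 6 fibroblast and nerve sheath genes split the libraries in a similar way. It was 6063, 5947, 4870.0, 2184 and 1654 in AP20187 mice 58 to 62, 2006, 1175 and 1502 in vehicle mice 32 to 34 and 4192 and 6526 in vehicle mice 63 and 64. In naive mice mouse 3 had the highest sum of both groups, 5606 with AP20187 and 4111 with vehicle. Mrc1, Cd163, Folr2, Clec10a and Cbr2 were likewise higher in mice 58 to 60 than in 61 and 62. None of the 6 genes was at 0 in a whole group, and their part in the results was not tested. Beside 11.3% and 8.61% of all genes, 1 passed higher in DMM and 1 in naive mice (Slc2a1, a glucose transporter of the nerve sheath).

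Mrc1 (ENSMUSG00000026712, chromosome 2, 14234203 to 14336868, build GRCm39 per the submitters' processing notes, as for all positions below) codes for the mannose receptor, which takes up glycoproteins. AP20187 mice 58 to 62, with DMM, had 182, 189, 148, 55.3 and 42.8 CPM. With vehicle it was at 39.3, 30.2, 33.3, 55.1 and 68.2 CPM in mice 32 to 34, 63 and 64. Mice 58 to 60 lay above all vehicle mice, while mice 61 and 62 lay inside the vehicle range. The means were 123 ± 69.8 and 45.2 ± 16.03 (SD, n = 5 each), a 2.73-fold difference, with a log2 fold change of 1.45 (SE of 0.43, adjusted p 0.023). Against vehicle mice 63 and 64 alone it was 1.04 (adjusted p 0.37). It no longer passed without AP20187 mouse 58 or 59 or without vehicle mouse 33 or 34 (adjusted p 0.0642, 0.0606, 0.0602 and 0.0549), or by limma on log2(FPKM + 0.1) and log2(FPKM + 1) (adjusted p 0.0552 and 0.05004), and its range over all alternatives was 0.000542 to 0.37.

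In naive mice Mrc1 was at 74.00, 119.7, 96.2 and 81.2 CPM with AP20187 (mice 1, 3, 4 and 5). With vehicle it was at 43.7, 28.8, 81.3, 33.4 and 15.04 CPM in mice 1 to 5. Vehicle mouse 3 was the 1 library that reached the AP20187 range. The log2 fold change was 1.20 (SE of 0.45, adjusted p 0.0891), and without vehicle mouse 3 it was 1.62 (adjusted p 0.0269). It passed with DESeq2 and limma voom (adjusted p 0.0446 and 0.0229, range over alternatives 0.0229 to 0.233). Outside the set, the tested genes whose log2 CPM followed Mrc1 most closely over the 19 libraries were the complement genes C1qa, C1qc and C1qb, with Pearson r of 0.973, 0.973 and 0.967, given as a description over libraries of 4 groups. With group means removed these were 0.952, 0.961 and 0.951.

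Cd163 (ENSMUSG00000008845, chromosome 6, 124281615 to 124307486) codes for the scavenger receptor of haptoglobin-hemoglobin complexes. AP20187 mice 58 to 62 with DMM had 76.3, 90.4, 68.1, 27.3 and 18.7 CPM, and vehicle mice had 20.2, 20.5, 16.96, 39.1 and 32.8. As for Mrc1, mice 58 to 60 lay above vehicle and mice 61 and 62 inside its range. The log2 fold change was 1.12 (SE of 0.43, adjusted p 0.0651), and 1.55 against vehicle mice 32 to 34 alone (adjusted p 0.0257). It also passed with DESeq2 and limma voom (adjusted p 0.0277 and 0.00272) and without AP20187 mouse 61 or 62 (adjusted p 0.0344 and 0.0335, range over alternatives 0.00272 to 0.574). In naive mice the range was 34.1 to 58.5 CPM with AP20187 and 11.1 to 58.3 with vehicle, which overlapped. There the fitted change was 0.75 log2 (SE of 0.45, adjusted p 0.274), and 1.17 without vehicle mouse 3 (adjusted p 0.0909). Closest to it was Fcrls (r = 0.935, and 0.929 with group means removed), a receptor gene of microglia and other resident macrophages. Cd300ld3 and Adgre1 followed with r of 0.925 and 0.923.

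Lyve1 (ENSMUSG00000030787, chromosome 7, 110449814 to 110462446) codes for a hyaluronan receptor of lymphatic vessels and of macrophages beside blood vessels. Its level in DMM was 41.4, 18.4, 18.3, 21.7 and 18 CPM in AP20187 mice 58 to 62 and at 5.93, 6.97, 7.40, 9.85 and 10.5 in vehicle mice 32 to 34, 63 and 64. All 5 AP20187 libraries lay above all of vehicle, with mouse 58 well above the rest. The means of 23.6 ± 10.1 and 8.14 ± 1.97 (SD, n = 5 each) differed 2.89-fold, or by 1.53 log2 in the fit (SE of 0.31, adjusted p 0.00286). Against vehicle mice 63 and 64 alone it was 1.24 (adjusted p 0.123, range over alternatives 2.51e-05 to 0.123). Naive mice had 11.98, 35.8, 26.2 and 18.9 CPM with AP20187 and 6.40, 8.41, 7.73, 13.4 and 6.03 with vehicle. AP20187 mouse 1 fell inside the vehicle range, which vehicle mouse 4 extended upward. Its log2 fold change there was 1.47 (SE of 0.32, adjusted p 0.00814), and it passed in all 18 alternatives.

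The 6 markers of lymphatic endothelium other than Lyve1 summed to 67.9 to 183 CPM in DMM with AP20187 and 75.6 to 127 with vehicle. In naive mice they summed to 95.9 to 179 and 53.8 to 136, and none was at 0 in a whole group. These ranges overlapped where those of Lyve1 in DMM did not. Of the 6, 2 passed higher in DMM and 1 in naive mice. The 5 blood endothelium markers summed to 127 to 231 CPM in DMM with AP20187 and 57.7 to 121 with vehicle, with no overlap, and to 171 to 383 and 53.7 to 272 in naive mice, which overlapped. Of these 5, 2 passed higher in DMM and 1 in naive mice, and none was at 0 in a whole group. The shares of all genes that passed higher were 11.3% in DMM and 8.61% in naive mice. The part of either list in the Lyve1 difference was not tested. Over the 19 libraries Lyve1 was followed most closely by Socs3 (r = 0.931, and 0.779 with group means removed), a suppressor of cytokine signalling, by Nod1 (r = 0.931) and by Icam1 (r = 0.929).

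Folr2 (ENSMUSG00000032725, chromosome 7, 101489195 to 101506401), the folate receptor beta of tissue macrophages, had the largest rise of the set by log2 fold change in both comparisons. In DMM it was at 16.7, 9.58, 9.77, 3.76 and 2.00 CPM in AP20187 mice 58 to 62. With vehicle it was at 0.447, 0.403, 0.484, 0.710 and 2.88 CPM in mice 32 to 34, 63 and 64. AP20187 mouse 62 lay below vehicle mouse 64, and the other AP20187 mice lay above all of vehicle. The means of 8.36 ± 5.79 and 0.986 ± 1.07 CPM (SD, n = 5 each) differed 8.48-fold, with a log2 fold change of 3.08 (SE of 0.77, adjusted p 0.00959). It was 2.23 against vehicle mice 63 and 64 alone (adjusted p 0.245, range over alternatives 0.000114 to 0.245) and 4.23 against mice 32 to 34.

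In naive mice Folr2 was at 5.48, 11.3, 6.80 and 4.03 CPM with AP20187. With vehicle it was at 0.142, 0.373, 1.25, 0.903 and 0.0401 CPM in mice 1 to 5, with 3 counts in mouse 5, at the floor. The groups did not overlap, and the means of 6.91 ± 3.15 (n = 4) and 0.542 ± 0.519 (n = 5) differed 12.7-fold. The log2 fold change was 3.67 (SE of 0.82, adjusted p 0.00863), and Folr2 passed in all 18 alternatives. Closest to it over the libraries was Dab2 (r = 0.964, and 0.903 with group means removed), an endocytic adaptor, then Tgfbr2 and Steap4 with r of 0.955 and 0.951.

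Clec10a (ENSMUSG00000000318, chromosome 11, 70047023 to 70061660) codes for the galactose-type lectin that is used as a marker of alternative activation and is also made by dendritic cells. Its CPM in DMM was 26.2, 13.6, 10.9, 4.85 and 3.43 with AP20187 and 3.84, 4.22, 4.89, 9.14 and 16.02 with vehicle. AP20187 mouse 62 was below every vehicle mouse and mouse 58 above every one, so that the groups overlapped widely. The log2 fold change was 0.63 (SE of 0.51, adjusted p 0.403). It passed with limma voom and sample weights (adjusted p 0.0312, range over alternatives 0.0312 to 0.978). It had the opposite sign against vehicle mice 63 and 64 alone, -0.06, and was 1.45 against mice 32 to 34 (adjusted p 0.0511). With 1 library left out it lay between 0.10 and 1.09, the latter without mouse 64. Naive mice had 9.87, 13.6, 10.4 and 8.00 CPM with AP20187 and 6.09, 4.77, 12.04, 5.23 and 2.50 with vehicle, 0.77 log2 apart (SE of 0.54, adjusted p 0.343). Only vehicle mouse 3 exceeded an AP20187 library. The 7 dendritic cell markers summed to 22.2 to 28.9 CPM in DMM with AP20187 and 37.1 to 48.9 with vehicle, and to 26.9 to 35.9 and 43.96 to 49.2 in naive mice, lower with AP20187 with no overlap. None of the 7 was at 0 in a whole group, and their part in the Clec10a values was not tested. Most like Clec10a over the libraries were the macrophage genes Adgre1 (r = 0.944, and 0.952 with group means removed), Csf1r (r = 0.938) and Fcrls (r = 0.934).

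Timd4 and Mertk code for receptors that bind phosphatidylserine on dying cells, Mertk through the bridging proteins Gas6 and Pros1. Timd4 (ENSMUSG00000055546, chromosome 11, 46701627 to 46735159), a mark of long-lived resident macrophages, was low, with 0 to 62 counts per library. The DMM mice had 0.545, 0.906, 0.305, 0.240 and 0.985 CPM with AP20187 and 0.0617, 0.627, 0.681, 0.393 and 0.412 with vehicle. The naive mice had 0, 0, 0.806 and 0.324 CPM with AP20187, with 0 counts in mice 1 and 3, and 0.755, 0.124, 0.640, 0.323 and 0.307 with vehicle. The log2 fold changes were 0.45 in DMM (SE of 0.94, adjusted p 0.776) and -0.60 in naive mice (SE of 1.02, adjusted p 0.717). Both differences were smaller than their standard errors. In naive mice the value rested on single libraries, at -1.97 without AP20187 mouse 4, -0.19 without mouse 1, -0.30 without vehicle mouse 1 and -0.17 without AP20187 mouse 3 (adjusted p 0.241 for the first and 0.94 for the last, range over alternatives 0.241 to 0.94). In DMM it lay between 0.16 and 0.67 when 1 library was left out.

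Mertk (ENSMUSG00000014361, chromosome 2, 128540876 to 128644814) stayed between 12.9 and 22.8 CPM over the 19 libraries. Mice with DMM had 19.1, 19.98, 21.2, 18.8 and 19.1 CPM after AP20187 and 12.9, 18.9, 14.3, 17.3 and 16.2 after vehicle. Naive mice had 14.3, 19.3, 21.5 and 18.4 CPM with AP20187 and 22.2, 19.1, 22.8, 19.4 and 15.6 with vehicle. In DMM vehicle mouse 33 alone reached the AP20187 range, and in naive mice the ranges overlapped widely. AP20187 differed from vehicle by 0.30 log2 in DMM (SE of 0.14, adjusted p 0.131) and -0.11 in naive mice (SE of 0.15, adjusted p 0.663). The naive value lay between -0.19 and -0.0044 when 1 library was left out. With limma voom and sample weights Mertk passed in DMM (adjusted p 0.0257, range over alternatives 0.0257 to 0.49). Mertk is also made by glia, and 5 satellite glia markers summed to 1609.8 to 3583 and 1897 to 4559 CPM in DMM and 2612 to 3526 and 1929 to 3439 in naive mice, overlapping ranges with no marker at 0. The highest r of any gene over the 19 libraries was 0.750 with Timd4 (Iqub) and 0.730 with Mertk (Piwil4).

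F13a1 (ENSMUSG00000039109, chromosome 13, 37051152 to 37234220) codes for the A subunit of coagulation factor XIII, a transglutaminase made by resident macrophages, monocytes and megakaryocytes. With DMM it was at 358, 287, 273, 137 and 332 CPM in AP20187 mice 58 to 62 and at 41.3, 38.9, 88.6, 123 and 209 in vehicle mice 32 to 34, 63 and 64. AP20187 mouse 61 lay below vehicle mouse 64, and the other AP20187 mice lay above all of vehicle. Unlike Mrc1 and Cd163, F13a1 was high in mouse 62. The means of 278 ± 85.7 and 100.1 ± 70.2 CPM (SD, n = 5 each) differed 2.77-fold, or 1.47 log2 (SE of 0.43, adjusted p 0.0206). It was 0.75 against vehicle mice 63 and 64 alone (adjusted p 0.382) and 2.30 against mice 32 to 34. Without AP20187 mouse 58 or vehicle mouse 33 it no longer passed (adjusted p 0.0511 and 0.0513, range over alternatives 0.000114 to 0.382).

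In naive mice F13a1 was at 219, 269, 163 and 142 CPM with AP20187 and at 64.2, 58.5, 127, 106 and 36.1 with vehicle. The groups did not overlap, yet the log2 fold change of 1.33 did not pass (SE of 0.44, adjusted p 0.0591). It passed with DESeq2 and limma voom (adjusted p 0.0208 and 0.00915), and without AP20187 mouse 5 or vehicle mouse 3 (adjusted p 0.0409 and 0.04, range over alternatives 0.00915 to 0.171). Over the 19 libraries its level was followed most closely by Nckap1l (r = 0.984, and 0.972 with group means removed), a cytoskeletal gene of blood cells. The 6 monocyte markers summed to 3306 to 8663 CPM in DMM with AP20187 and 169.6 to 1710.2 with vehicle, and to 1588 to 4931 and 271 to 1103 in naive mice. For the 6 megakaryocyte and platelet markers the sums were 93.7 to 305 and 12.5 to 181 CPM in DMM and 89.03 to 134 and 20.8 to 74.1 in naive mice. No marker of either list was at 0 in a whole group. With AP20187 the monocyte sums were mostly Chil3, which granulocyte precursors also make. Without it the sums were 484 to 699 and 119 to 889.7 CPM in DMM and 266 to 651 and 141 to 742 in naive mice, which overlapped. Of the monocyte markers Chil3, Ly6c2 and Plac8 passed higher in each comparison. Ccr2, the chemokine receptor of classical monocytes, passed lower, with -2.59 log2 in DMM and -2.05 in naive mice (adjusted p 0.00426 and 0.0342). The platelet sums overlapped in DMM alone. Of the platelet markers 1 passed higher in DMM and 0 in naive mice, beside 11.3% and 8.61% of all genes. Their part in the F13a1 difference was not tested.

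Cbr2 (ENSMUSG00000025150, chromosome 11, 120620315 to 120622940) codes for a carbonyl reductase found in resident macrophages. Its DMM values were 60.99, 43.2, 46.1, 15.5 and 13.96 CPM in AP20187 mice 58 to 62 and 5.97, 4.12, 4.46, 13.96 and 26.1 in vehicle mice 32 to 34, 63 and 64. Mice 58 to 60 lay above all vehicle mice, and mice 61 and 62 lay inside the vehicle range. The means of 35.9 ± 20.5 and 10.9 ± 9.39 CPM (SD, n = 5 each) differed 3.29-fold, or 1.72 log2 (SE of 0.54, adjusted p 0.0282). It was 0.87 against vehicle mice 63 and 64 alone (adjusted p 0.472) and 2.89 against mice 32 to 34. Cbr2 no longer passed without AP20187 mouse 58, 59 or 60 (adjusted p 0.0815, 0.0546 and 0.0581) or vehicle mouse 32, 33 or 34 (adjusted p 0.0662, 0.0704 and 0.0667), in a range over alternatives of 4.79e-05 to 0.472.

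In naive mice Cbr2 was at 25.8, 44.2, 21.2 and 24.5 CPM with AP20187 and at 6.61, 3.78, 12.7, 8.37 and 3.38 with vehicle, with no overlap. The means of 28.9 ± 10.4 (n = 4) and 6.98 ± 3.82 (n = 5) differed 4.15-fold, and the log2 fold change was 2.05 (SE of 0.56, adjusted p 0.0254). Without AP20187 mouse 1 or 3 the adjusted p was 0.0534 and 0.0957. Without vehicle mouse 1, 2 or 5 it was 0.0607, 0.0686 and 0.062, in a range over alternatives of 0.00219 to 0.0957. Its closest gene over the libraries was Trf (r = 0.986, and 0.976 with group means removed), which codes for transferrin, with Adh1 and Steap4 next (r = 0.983 and 0.981).

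Retnla (ENSMUSG00000061100, chromosome 16, 48662914 to 48664824) codes for resistin-like alpha, a small secreted protein that interleukin 4 induces strongly in mouse macrophages, and it moved against the 5 genes that rose in DMM. In DMM with AP20187 it had 0 counts in all 5 libraries. With vehicle it was at 0.432, 0.582, 0.696, 0.997 and 3.22 CPM in mice 32 to 34, 63 and 64, which are 28, 39, 46, 66 and 219 counts. The vehicle mean of 1.19 ± 1.16 CPM (SD, n = 5) was at least 25.7-fold higher than the AP20187 group, taken at the floor of 3 counts per library, and at least 14.6-fold without vehicle mouse 64. The fall passed (adjusted p 0.000684) and did so in all 19 alternatives, also against vehicle mice 63 and 64 alone (adjusted p 0.00646) and mice 32 to 34 alone (adjusted p 0.000975). Retnla met the filter on low counts through the vehicle libraries, where it is high. The fitted log2 fold change of -9.27 depends on the prior count and is not a bound.

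In naive mice with AP20187 Retnla had 4, 28, 0 and 8 counts in mice 1, 3, 4 and 5, or 0.0692, 0.473, 0 and 0.130 CPM. With vehicle it was at 1.70, 0.591, 1.29, 0.823 and 0.414 CPM in mice 1 to 5. AP20187 mouse 3 lay inside the vehicle range, just above vehicle mouse 5, and the other AP20187 libraries lay below it. The means were 0.168 ± 0.210 (n = 4) and 0.964 ± 0.527 (n = 5), and the log2 fold change of -2.51 (SE of 0.95) did not pass (adjusted p 0.09998). Without AP20187 mouse 3 it was -3.81 (adjusted p 0.0525). It passed under DESeq2 (adjusted p 0.031), under limma voom with sample weights (adjusted p 0.00955) and by limma on log2(FPKM + 0.1) and log2(FPKM + 1) (adjusted p 0.00804 and 0.0322), in a range over alternatives of 0.00804 to 0.223.

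Eosinophils and fat cells can also make Retnla. The 4 eosinophil markers summed to 58.7 to 277 CPM in DMM with AP20187 and 12.98 to 167 with vehicle, and to 88.6 to 240.0 and 21.4 to 47.2 in naive mice. The 5 adipocyte markers summed to 10.6 to 31.9 and 3.79 to 40.8 CPM in DMM and 13.4 to 30.00 and 2.81 to 24.00 in naive mice. No marker of either list was at 0 in a whole group. Over the 19 libraries the genes most like Retnla were Otoa (r = 0.892, and 0.243 with group means removed), Pax5 (r = 0.883, and 0.526) and Fcmr (r = 0.881, and 0.489). The last 2 are genes of B cells, and 7 markers of the early B lineage summed to 44.1 to 115 CPM in DMM with AP20187 and 155 to 197 with vehicle, and to 68.98 to 149 and 152 to 207 in naive mice. Their part in the Retnla difference was not tested.

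The next comparison set each gene beside general macrophage transcripts. For each library the mean log2 CPM of 10 general macrophage genes (Csf1r, Adgre1, Cd68, Aif1, Fcgr1, C1qa, C1qb, C1qc, Cx3cr1 and Itgam) was subtracted from the log2 CPM of the gene. That mean was 5.45 ± 0.82 in DMM with AP20187 and 4.38 ± 0.93 in the DMM vehicle mice (SD over 5 libraries each), and 5.48 ± 0.44 (n = 4) and 3.74 ± 0.87 (n = 5) in naive mice. Its members did not move alike in DMM. Csf1r, whose promoter drives the transgene, had -0.02 log2 (adjusted p 0.982), Cx3cr1 -0.64 (adjusted p 0.389), and Itgam, which granulocytes also make, 2.83 (adjusted p 0.00138). Differences between groups were compared by two-sided exact permutation tests, 10 genes in 4 comparisons less 2 where Retnla was at 0 in a whole group, 38 in all, with Benjamini-Hochberg adjustment. The smallest p possible was 0.00794 for 5 against 5 libraries and 0.0159 for 4 against 5. None of the 38 passed after adjustment, the lowest adjusted p being 0.101, and 12 had an unadjusted p under 0.05. Folr2 was higher relative to these genes by 2.07 log2 in DMM (exact p 0.00794) and 2.44 in naive mice (exact p 0.0159), outside the vehicle range in 5 of 5 and 4 of 4 libraries. Cbr2 was higher by 0.80 in DMM (exact p 0.00794, 5 of 5 libraries outside) and 0.42 in naive mice (exact p 0.0317).

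Other genes did not pass after adjustment either. Clec10a differed by -0.58 log2 in DMM (exact p 0.0397) and -0.81 in naive mice (exact p 0.0159). Mertk differed by -0.76 (exact p 0.206) and -1.84 (exact p 0.0159), and Cd163 by -0.12 (exact p 0.706) and -0.80 (exact p 0.0476), in the same order. Mrc1 differed by 0.20 in DMM (exact p 0.444) and -0.35 in naive mice (exact p 0.111). Lyve1 was at 0.41 and -0.32 (exact p 0.341 and 0.476). F13a1 was at 0.62 and -0.31 (exact p 0.0238 and 0.175), the first of them 0.31 without AP20187 mouse 62. With 1 library left out, Lyve1 lay between 0.18 and 0.64 in DMM and between -0.65 and -0.10 in naive mice. In DMM Mrc1 then lay between 0.034 and 0.37, and Mertk between -1.08 and -0.48. Retnla in naive mice differed by -4.55 (exact p 0.0159), outside the vehicle range in 4 of 4 libraries, and Timd4 differed by -3.35 (exact p 0.0317). The size of these last 2 depends on the prior count of 2, since libraries at 0 enter.

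**Figure D3:**
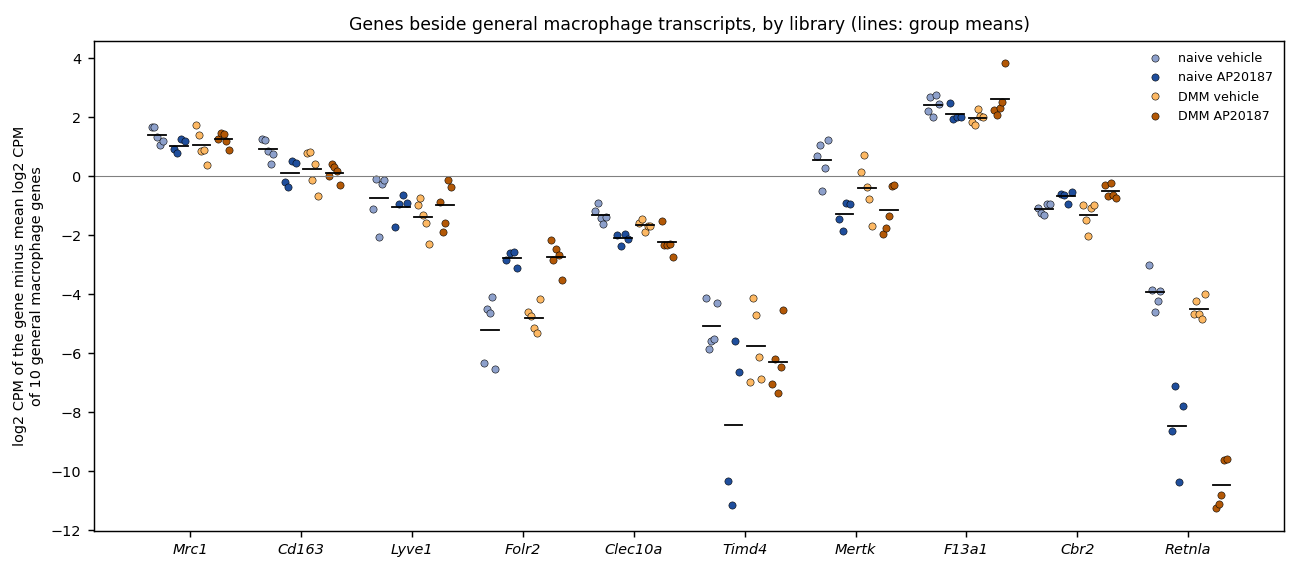
Log2 CPM of each gene minus the mean log2 CPM of 10 general macrophage genes (vertical axis) in each library, with a line at each group mean. Folr2 lies higher and Retnla lower in the AP20187 groups than in the vehicle groups, and in DMM AP20187 mouse 62 has the highest F13a1. Retnla points of DMM with AP20187 are at 0 counts and stand where the prior count puts them.

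Genes that control the program were taken from a list of 16, of which 15 were analysed here. In DMM 5 passed higher with AP20187 and 1 lower, with a median log2 fold change of 0.13, beside 11.3% higher and 12.4% lower of all genes. In naive mice 7 passed higher and 1 lower, with a median of 0.70, beside 8.61% higher and 2.57% lower of all genes. Il4ra, the receptor chain shared by interleukin 4 and 13, stood at 219.7, 150.1, 151, 145 and 233 CPM in AP20187 mice with DMM and at 40.4, 45.2, 42.8, 32.98 and 36.6 in their vehicle mice. Naive mice had 137, 152, 107 and 92.3 CPM with AP20187 and 43.7, 51.6, 42.8, 36.3 and 45.5 with vehicle. In neither comparison did the groups overlap, and the log2 fold changes were 2.18 (SE of 0.18, adjusted p 2.11e-06) and 1.47 (SE of 0.18, adjusted p 0.000128). The factor STAT6, coded by Stat6, had 0.13 in DMM and 0.07 in naive mice (adjusted p 0.495 and 0.755). Irf4, a transcription factor of alternative activation and of lymphocytes, fell in both, with -1.74 and -2.69 (adjusted p 0.038 and 0.016). Kdm6b, a histone demethylase, rose by 1.36 and 0.93 (adjusted p 0.00111 and 0.023). In naive mice the oxysterol receptor gene Nr1h3 rose by 1.69 (adjusted p 0.0161). Il10, an anti-inflammatory cytokine, had 0 counts in all 5 naive vehicle libraries and 0.467, 0.338, 0 and 0.146 CPM in naive AP20187 mice 1, 3, 4 and 5. It is 1 of the 7, and it met the filter on low counts through groups where it is present. With AP20187 it was at least 5.34-fold higher, with vehicle at the floor of 3 counts per library.

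Of 12 further genes of alternative activation, 2 passed higher and 2 lower in DMM (median 0.34), and 4 higher and 0 lower in naive mice (median 1.59). The shares of all genes were those just given, and the DMM count lay near them. Chil3, a chitinase-like protein that is also made by monocytes and granulocyte precursors, rose by 3.91 log2 in DMM (adjusted p 0.000717) and 3.75 in naive mice (adjusted p 0.00205). Tgm2, a transglutaminase, rose by 1.49 and 1.91 (adjusted p 0.0119 and 0.00693). Il1rn, the interleukin 1 receptor antagonist, rose by 2.12 in naive mice (adjusted p 0.0196) and had 1.15 in DMM (adjusted p 0.109).

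Those lower in DMM were Ccl24 and Socs2, the latter a suppressor of cytokine signalling at -0.74 (adjusted p 0.0331). Ccl24, the gene of an eosinophil-attracting chemokine, had 0 counts in all 5 DMM libraries with AP20187 and was at 0.540, 0.224, 0.408, 0.665 and 2.58 CPM in vehicle mice 32 to 34, 63 and 64. That made vehicle at least 19.1-fold higher (adjusted p 0.00118), and at least 9.94-fold without mouse 64. Like Retnla, it met the filter on low counts through the vehicle libraries, where it is high. Naive mice had 0.501, 0.135, 0.185 and 0 CPM with AP20187 and 0.362, 0.404, 1.03, 0.371 and 0.160 with vehicle, which overlapped (log2 fold change -1.17, adjusted p 0.433).

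Among 18 other genes of resident macrophages, 4 passed higher and 0 lower in DMM (median 0.95), and 4 higher and 0 lower in naive mice (median 0.97). Over all genes 11.3% passed higher in DMM and 8.61% in naive mice. Vsig4, a complement receptor of resident macrophages, had 3.70 in DMM (adjusted p 0.0314) and 3.52 in naive mice (adjusted p 0.0643). The scavenger receptor gene Stab1 had 1.18 and 0.96 (adjusted p 0.0381 and 0.134). Ms4a7, a membrane protein of macrophages, and Hpgds, a prostaglandin D synthase, rose in naive mice by 2.16 and 1.66 (adjusted p 0.0266 and 0.0392). The iron exporter gene Slc40a1 rose by 1.70 and 1.50 (adjusted p 0.0143 and 0.0477). Of the partners of Mertk, the bridging protein gene Pros1 rose by 0.90 and 1.08 (adjusted p 0.0438 and 0.0405), while Gas6 had 0.23 and 0.13 (adjusted p 0.517 and 0.745). The related receptors Axl and Tyro3 had 0.47 and -1.01 in DMM (adjusted p 0.348 and 0.0576). Of 12 general macrophage genes, 3 passed higher in DMM (median 1.20) and 7 in naive mice (median 1.68), and none lower.

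**Figure D4:**
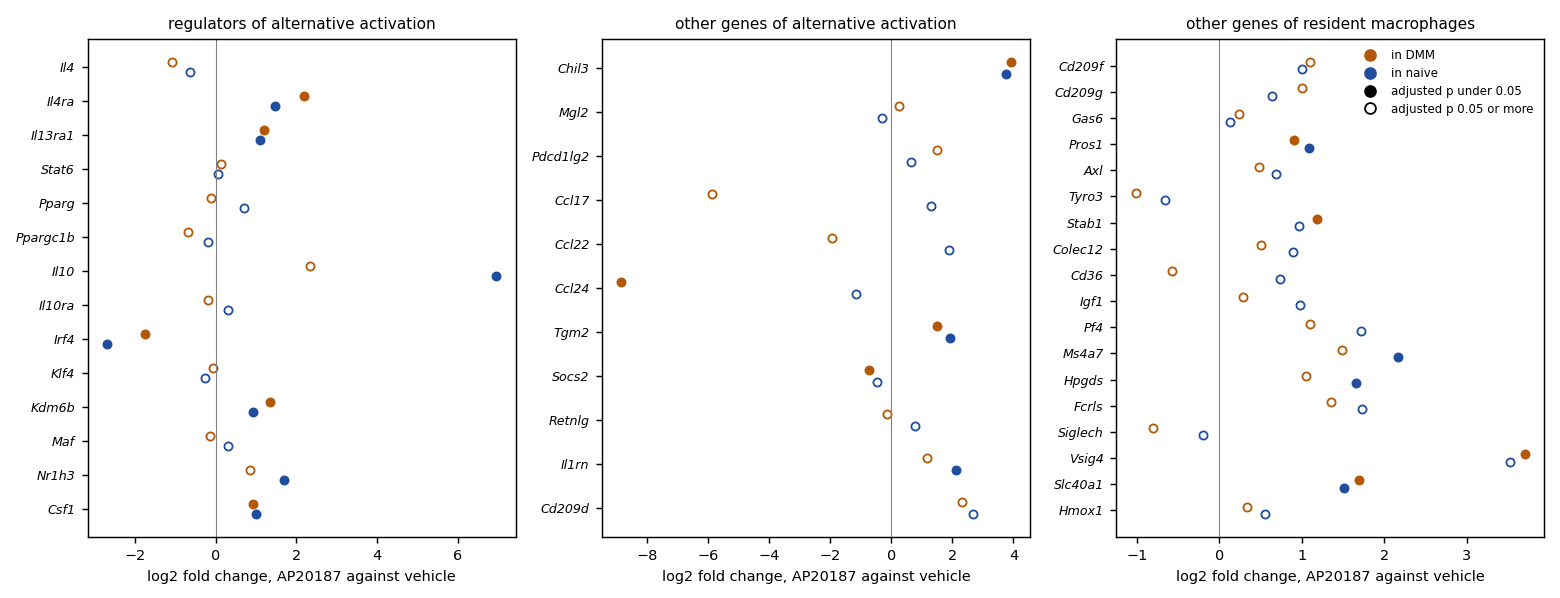
Log2 fold change of AP20187 against vehicle (horizontal axes) for genes of 3 lists, in DMM and in naive mice, filled where the adjusted p was under 0.05. Il4ra and Chil3 lie to the right in both, Irf4 to the left in both, and Ccl24 far to the left in DMM, where its size depends on the prior count.

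Surgery itself was compared within each treatment. With vehicle, 0 of the 10 genes passed in DMM against naive mice by edgeR, and also by DESeq2 and limma voom, against 0% of 22778 genes by edgeR. Of the 10, 1 had an unadjusted p under 0.05, Mertk, with a log2 fold change of -0.31 (SE of 0.14, adjusted p 1). Over all genes 377 had an unadjusted p under 0.05, and DESeq2 passed 1. The log2 fold changes of the 10 genes lay between -0.31 and 0.86, and 9 of them, all but Mertk, had the opposite sign in at least 1 alternative. With AP20187, 0 of 10 passed by edgeR, against 0.702% of all genes, and 1 had an unadjusted p under 0.05. This was Retnla, at 0 counts in DMM against 0 to 28 counts in naive mice, at least 3.63-fold lower, or 1.43-fold without naive mouse 3 (adjusted p 0.0503). It passed under DESeq2 (adjusted p 0.000485), without TMM (adjusted p 0.04996) and without naive AP20187 mouse 4 (adjusted p 0.0249), in a range over alternatives of 0.000485 to 0.664. For the 9 other genes the log2 fold changes lay between 0.02 and 1.07, and 5 of them, Cd163, Lyve1, Folr2, Clec10a and Mertk, had the opposite sign in at least 1 alternative.

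Whether AP20187 acted differently in DMM and naive mice was tested as the interaction. By edgeR 0 of the 10 genes passed, against 0.114% of all genes, and 1 had an unadjusted p under 0.05, Retnla (adjusted p 0.182). Retnla passed under DESeq2 (adjusted p 0.00862, range over alternatives 0.00862 to 0.892), and limma voom passed 0 of 10. For the other 9 genes the difference of log2 fold changes, DMM minus naive, lay between -0.58 and 1.05, and 7 of the 9, all but Timd4 and Mertk, changed sign in at least 1 alternative. That Mrc1, F13a1 and Retnla passed in DMM and not in naive mice was therefore not shown to be a difference between them.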

How the data were processed

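The deposited table held, per gene, whole-number counts and FPKM made by the authors for 19 stranded poly(A) libraries. Cutadapt, HISAT2, StringTie and build GRCm39 are named in the submitters' processing notes, with no versions, and the annotation is not given in the sources used here. A second deposited table of counts held 56691 entries, of which 6448 had no name (0.414% to 1.72% of counts). Counts of the 10 genes were equal in both. All tests ran on the first table.

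Samples were grouped by their titles. Of 36682 genes, 22778 passed filterByExpr (minimum count 10), the 10 genes among them, and were fitted with edgeR 4.0.16 (R 4.3.3), TMM, and 1 model of 4 groups with 15 residual degrees of freedom. P-values were adjusted by Benjamini-Hochberg over the 22778 genes, with a threshold of 0.05. Alternatives used DESeq2 1.42.0, limma 3.58.1 with voom or log2(FPKM + 1) and log2(FPKM + 0.1), other filters and scalings, and left out libraries. Exact permutation tests used scipy 1.17.1 on log2 CPM with a prior count of 2. The fit was also run on simulated counts with changes set in some genes of the DMM AP20187 group. The simulation held no separate series of mice, so it is no check on the differences between mouse series above. Named genes were the 10 genes, the 3 genes most correlated with each over 19 libraries, and, from each list, at most 4 of those that passed, by size of change; some others are named for their role, with values in view, and some listed genes enter the counts but are not reported here by name. The genes and lists were chosen with earlier results of these data known. Each mouse gave 1 library, and the mouse is the replicate.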

Additional observations from a re-analysis of the deposited data

Results flagged for a closer look

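In 7 of 85 sets of libraries, 1 library stood far from the others of its group by Dixon's criterion. Chance alone meets it in about 1 of 20 sets of independent, normally distributed values. These sets share libraries, and many are of CPM on a linear scale. Sets at 0 throughout are counted though they cannot meet it. All 7 were the highest library of their set, and whether they exceed chance was not tested. Vehicle mouse 64 with DMM had 3 of the 7. It had Folr2 at 2.88 CPM, where the other 4 mice were at 0.403 to 0.710. Its Retnla was at 3.22 CPM, where the others were at 0.432 to 0.997, and its Ccl24 at 2.58 CPM, where the others were at 0.224 to 0.665. Without it, the log2 fold change of Folr2 in DMM was 4.03 (adjusted p 0.00123, range over alternatives 0.000114 to 0.245), and Retnla passed (adjusted p 0.000475, range over alternatives 1.52e-10 to 0.00646).

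In DMM with AP20187, mouse 58 had Lyve1 at 41.4 CPM, where the others were at 18 to 21.7. Without it the log2 fold change of Lyve1 was 1.23 (adjusted p 0.00999, range over alternatives 2.51e-05 to 0.123). Mouse 62 of that group had F13a1 at 3.83 log2 above the mean of the general macrophage genes, where the others were at 2.08 to 2.51. Without it the difference of F13a1 from vehicle on this scale was 0.31 rather than 0.62. Naive AP20187 mouse 1 had F13a1 at 2.47 on that scale, where the others were at 1.95 to 2.00. Naive vehicle mouse 3 had Ccl24 at 1.03 CPM, where the others were at 0.160 to 0.404.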

How the results depend on the processing

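The number of the 10 genes that passed depended on the libraries and tools. In DMM it was 6, 1 against vehicle mice 63 and 64, 9 with limma voom and sample weights, and 3 to 7 when 1 library was left out, with 3 without AP20187 mouse 58 or vehicle mouse 33. In naive mice it was 3, then 6 with DESeq2, 6 with limma voom, and 2 to 5 when 1 library was left out, with 5 without vehicle mouse 3. With a replicate block on the mouse numbers that the naive groups share it was 5, Mrc1 and F13a1 added, and 3 in the same 8 libraries unblocked, a fit chosen after seeing the data. Whether shared numbers pair the mice is not given by the labels and was not settled here. Deviations of same-numbered libraries correlated at 0.00781, 0.254, -0.0532 and 0.223 for mice 1, 3, 4 and 5. The DMM groups share no number. The count in DMM against naive with AP20187 went from 0 to 1 with DESeq2 and without TMM, and was 0 to 1 when 1 library was left out. The interaction went from 0 to 1 with DESeq2. No gene relative to general macrophage genes passed under any alternative run, which says nothing of stability, since these exact tests can pass after adjustment only if many of the 38 reach their smallest p.

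The 42 single-gene results had 668 values under alternatives. They include results relative to general macrophage genes, whose side of the threshold was all but fixed. The count that kept it therefore overstates stability. Of the 668, 615 kept direction and side of the threshold, 24 no longer passed, 24 newly passed and 5 changed direction. The last were Clec10a in DMM, -0.0645 against vehicle mice 63 and 64, and, relative to general macrophage genes in DMM, Mrc1 at -0.0501 against C1q genes alone and Cd163 at 0.0209 with the median of the list. Cd163 ranged from -0.35 to 0.0213 when 1 library was left out and changed direction without vehicle mouse 32 or 33. The cause of these changes was not tested. Timd4 did not meet the filter of 1 CPM in 4 libraries.

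Over all genes in DMM, 5410 passed, 10676 with limma voom, 8450 against vehicle mice 32 to 34, 1156 against mice 63 and 64, and 3212 without AP20187 mouse 58, 3419 without vehicle mouse 32 or 3407 without mouse 33. In naive mice it was 2548, then 4367 with DESeq2, 4565 with limma voom, 4147 on log2(FPKM + 1), 4225 on log2(FPKM + 0.1), 1191 and 994 without AP20187 mouse 1 or 3, and 1368, 1292 and 1566 without vehicle mouse 1, 2 or 5. In DMM against naive with AP20187 it was 160, then 1158 with DESeq2, 234 without TMM, 2459 with limma voom, 1220 and 1011 on log2(FPKM + 1) and log2(FPKM + 0.1), 73 with no filter and 43 to 269 when 1 library was left out. For the interaction it was 26, 237 with DESeq2 and 12 to 57 when 1 library was left out. With vehicle, 541 genes passed between DMM and naive mice with vehicle mice 63 and 64 alone. Depth limits Retnla with AP20187, which was at 0 in 6 libraries.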

Other observations

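Between groups Retnla moved against Lyve1, Folr2 and Cbr2, but in 2 groups the library with the highest Retnla was also the highest for 6 other genes. Naive AP20187 mouse 3 had the highest CPM of its group for 7 of the 10 genes, Mrc1, Lyve1, Folr2, Clec10a, F13a1, Cbr2 and also Retnla. DMM vehicle mouse 64 was highest for the same 7 genes. In naive mice with vehicle, mouse 3 was highest for 7 of the 10, and mouse 1 had the highest Retnla and Timd4. These are single libraries that were picked out after their values had been seen, and no test was made of them.

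In DMM mice with AP20187, mice 61 and 62 had the lowest Mrc1, Cd163, Folr2, Clec10a and Cbr2 of their group, yet mouse 62 had F13a1 at 332 CPM, the second value of the group. Its fibroblast and nerve sheath sum was the lowest of the group and its neutrophil and granulocyte precursor sum, 28952 CPM, the highest of all 19 libraries.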
